A study of Mus musculus with 8 samples.

Results

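The 10 genes described here encode transcription factors and 1 corepressor that work in epidermis and hair follicle: *Trp63*, *Hr*, *Ovol1*, *Ovol2*, *Gata3*, *Cux1*, *Grhl1*, *Grhl3*, *Cebpa* and *Cebpb*. They were taken by symbol from a table of 23358 genes, and all 10 were found in it. All 10 also passed the filter on low values, which kept 14148 genes with a level of 1 RPKM or more (reads scaled by gene length in kilobases and by library size) in 2 or more of the 8 libraries. In the table's build, mm10, *Trp63* at chr16:25683765-25892088 (plus strand), *Hr* at chr14:70554056-70573542 (plus strand), *Ovol1* at chr19:5549137-5560575 (minus strand), *Ovol2* at chr2:144305176-144332080 (minus strand), *Gata3* at chr2:9857078-9878600 (minus strand) were protein-coding genes, as were *Cux1* at chr5:136248135-136567431 (minus strand), *Grhl1* at chr12:24572287-24617391 (plus strand), *Grhl3* at chr4:135541888-135573620 (minus strand), *Cebpa* at chr7:35119293-35121931 (plus strand) and *Cebpb* at chr2:167688915-167690418 (plus strand). RNA-seq was performed on mouse tissues that the study names as dental epithelia, on the C57BL/6 background. They were dissected at 4 weeks of age from the cervical loop (CL), where the incisor grows. CLH, the head of the loop, holds the dental epithelial stem cells, and CLT, its tail, holds their progenies. In *Med1* cKO mice, Cre recombinase driven by the *Krt14* promoter, which is active in epithelial cells, removes exons 8 to 10 of *Med1*. MED1 is a subunit of Mediator, the complex that links enhancers to RNA polymerase. Ctrl mice were Cre-negative littermates, labelled WT. The groups came from 2 litters with 6 CL tissues pooled per group, and each of the 4 groups (Ctrl CLH, cKO CLH, Ctrl CLT and cKO CLT) has 2 libraries. CLH and CLT each hold all cells of the dissected piece, and genes of mesenchyme and bone were read in both. Fewer cells of a type and less RNA per cell therefore cannot be told apart in any value given here.

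In stratified epithelia, p63 keeps basal cells in their epithelial state, and cells that leave the basal layer switch on further factors in turn. C/EBPα, C/EBPβ, OVOL1 and GRHL3 act as keratinocytes stop dividing and build the barrier, while GATA3 and CUX1 are known from the inner root sheath of the hair follicle and HR (hairless) from the regrowth of hair. Enamel-forming ameloblasts derive from the same embryonic ectoderm but follow a different programme.

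The promoters of 5 of the genes are printed because these genes include those with the largest fold changes (*Grhl1*, *Gata3*), 2 of the others with a core promoter motif (*Grhl3*, *Cebpa*) and the one whose difference in CLT was opposite to the rest (*Ovol2*). RefSeq (build GRCm38.p6) gave a window of 300 bases, from 250 bases before to 50 bases after the start site, for 7 of the 10 genes; *Trp63*, *Hr* and *Ovol1* had none in the table used. Each sequence runs 5′ to 3′ on the strand of the gene, and capitals mark a CCAAT box or a TATA box, searched as TATAAA, on either strand.
*Grhl1*, chr12:24572037-24572336, plus strand: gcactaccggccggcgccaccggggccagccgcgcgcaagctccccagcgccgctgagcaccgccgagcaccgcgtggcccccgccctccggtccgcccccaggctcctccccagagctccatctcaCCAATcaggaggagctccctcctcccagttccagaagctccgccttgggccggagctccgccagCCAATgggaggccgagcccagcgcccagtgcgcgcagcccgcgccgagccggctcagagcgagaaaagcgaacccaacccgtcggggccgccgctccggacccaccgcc
*Gata3*, chr2:9878551-9878850, minus strand: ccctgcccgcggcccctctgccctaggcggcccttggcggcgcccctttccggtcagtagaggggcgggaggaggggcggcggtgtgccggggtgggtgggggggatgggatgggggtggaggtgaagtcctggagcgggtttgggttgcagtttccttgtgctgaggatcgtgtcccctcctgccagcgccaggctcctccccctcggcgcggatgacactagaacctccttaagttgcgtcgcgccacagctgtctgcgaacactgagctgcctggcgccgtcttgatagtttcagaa
*Grhl3*, chr4:135573583-135573882, minus strand: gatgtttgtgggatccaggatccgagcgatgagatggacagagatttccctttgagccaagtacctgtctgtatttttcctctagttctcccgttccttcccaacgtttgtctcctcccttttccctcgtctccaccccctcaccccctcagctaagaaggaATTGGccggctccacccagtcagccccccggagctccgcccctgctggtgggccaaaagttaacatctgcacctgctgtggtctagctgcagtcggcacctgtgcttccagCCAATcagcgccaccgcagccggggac
*Cebpa*, chr7:35119043-35119342, plus strand: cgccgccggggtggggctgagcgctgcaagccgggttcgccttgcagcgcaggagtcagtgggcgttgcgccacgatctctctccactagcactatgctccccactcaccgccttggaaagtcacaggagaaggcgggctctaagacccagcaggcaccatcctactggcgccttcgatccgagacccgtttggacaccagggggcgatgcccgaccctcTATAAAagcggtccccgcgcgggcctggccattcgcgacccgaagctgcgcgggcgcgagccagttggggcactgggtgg
*Ovol2*, chr2:144331313-144331612, minus strand: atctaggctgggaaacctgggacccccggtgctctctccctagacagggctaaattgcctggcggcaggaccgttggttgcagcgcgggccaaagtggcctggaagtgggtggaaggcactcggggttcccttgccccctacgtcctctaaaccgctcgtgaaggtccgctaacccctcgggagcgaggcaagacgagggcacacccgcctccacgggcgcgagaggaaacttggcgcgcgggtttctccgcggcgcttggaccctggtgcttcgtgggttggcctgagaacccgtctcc
The *Grhl1* window is the first of its 2 annotated start sites and held 2 CCAAT boxes, the *Grhl3* window held 1 on each strand, and the *Cebpa* window held 1 TATA box that begins 30 bases before the start. Of the 32851 windows of this length in the table, 37.4% held a CCAAT box and 13.6% a TATA box. No window of the 7 genes held AACCGGTT, the GRHL motif (0.146% of all windows), TTNNGCAA, a C/EBP motif (10.8%), an OVOL motif, CCGTTA (2.76%), a GATA motif, AGATAA (11.2%), or the paired core of p63 sites, which is CATG repeated after 6 bases (0.712%), on either strand. These letters were searched in these windows alone, and nothing about binding follows from their absence. The windows were rich in G and C, from 58.3% in *Grhl3* to 80.7% in *Cebpb* with the first *Grhl1* start at 75.3%, against a median of 52.7% over all windows. The second *Grhl1* start, with 51.3%, held no CpG, whereas the first held 35 and the *Cebpb* window 50.

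Library totals recovered from the RPKM steps lay between 26591615 and 34420183 reads, and the values of the 10 genes rested on 4 reads (*Gata3* in cKO CLH 1) to 19917 reads (*Hr*). *Med1* RPKM in CLH was 7.71 and 9.12 (Ctrl) and 7.10 and 7.03 (cKO), and in CLT it was 4.83 and 8.71 (Ctrl) and 9.15 and 8.96 (cKO). This value sums reads over the whole gene, including exons that the deletion leaves in place, so it does not check the knockout. The libraries of Ctrl CLT stood apart from each other. Their median absolute log2 difference was 0.40 over all genes tested and 2.19 over the 10 factors, all 10 of which were higher in Ctrl CLT 1, as were 43.0% of all genes tested. In the other groups the factors' median difference between replicates was 0.07 to 0.09. Marker genes of hair, cornified epidermis, skeletal muscle, fat cells and melanocytes also differed between them, with summed RPKM at 32.5% to 38.3% of the cKO CLT mean in Ctrl CLT 1 and at 0.0822% to 2.62% in Ctrl CLT 2. Whether Ctrl CLT 1 held other tissue or was mixed with another sample was not tested, and every Ctrl CLT mean and CLT contrast takes in this library. Each Ctrl CLT library is therefore given apart, and the calls for the 10 factors that rest on them are given with and without each of them.

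**Figure D1:**
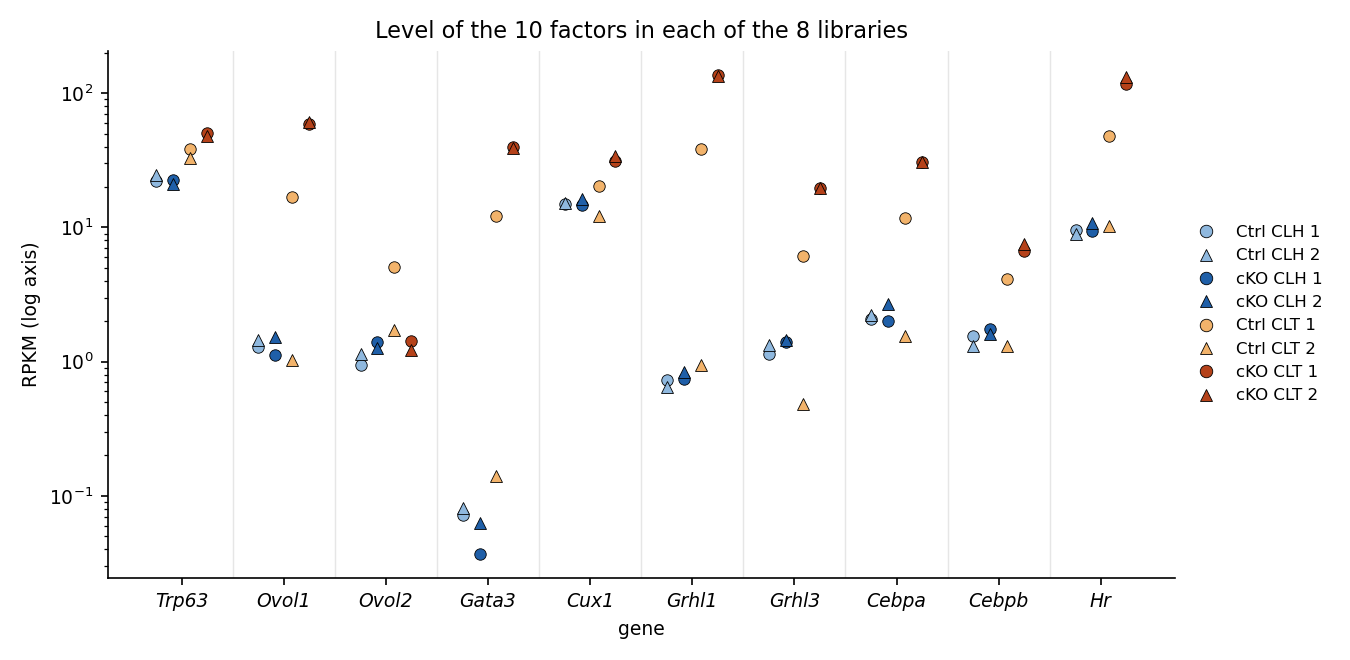
RPKM on a log axis for the 10 genes in each of the 8 libraries, 1 point per library, coloured by group, with circles for replicate 1 and triangles for replicate 2. In 9 genes both cKO CLT points are the highest and Ctrl CLT 1 lies next, while in *Ovol2* Ctrl CLT 1 is highest at 5.11 RPKM and the cKO CLT points lie at 1.42 and 1.22.

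*Trp63* encodes p63, the p53 relative that maintains the basal layer. Its RPKM in CLH was 22.4 and 24.6 (Ctrl) and 22.7 and 21.2 (cKO), and in CLT it was 38.7 and 33.2 (Ctrl) and 50.8 and 47.8 (cKO). The gene was well expressed in every library, the CLH groups overlapped, and both cKO CLT libraries lay above both Ctrl CLT libraries, which lay above all of CLH. Between lowest and highest library the span was 2.39-fold, the smallest among the 10 genes.

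*Ovol1* and *Ovol2* encode zinc finger repressors that restrain proliferation and mesenchymal genes in epithelia. *Ovol1* RPKM in CLH was 1.28 and 1.46 (Ctrl) and 1.13 and 1.52 (cKO), and in CLT it was 16.9 and 1.02 (Ctrl) and 58.6 and 61.2 (cKO). *Ovol2* RPKM in CLH was 0.948 and 1.14 (Ctrl) and 1.39 and 1.26 (cKO), and in CLT it was 5.11 and 1.72 (Ctrl) and 1.42 and 1.22 (cKO). The 2 relatives thus peaked in different groups: *Ovol1* in both cKO CLT libraries and *Ovol2* in Ctrl CLT 1, with cKO CLT at the level of cKO CLH. The *Ovol1* to *Ovol2* ratio of RPKM, between 0.597 and 3.31 in the other 6 libraries, was 41.3 and 50.2 in cKO CLT.

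*Gata3* encodes the zinc finger factor that specifies the inner root sheath. Its RPKM in CLH was 0.0723 and 0.0810 (Ctrl) and 0.0369 and 0.0631 (cKO), and in CLT it was 12.2 and 0.140 (Ctrl) and 39.7 and 38.9 (cKO). The gene was barely detected in 5 libraries, at 4 to 12 reads, and well detected in Ctrl CLT 1 and cKO CLT, at 1149 to 3575 reads. *Cux1* encodes a homeodomain factor also found in the inner root sheath, and its RPKM in CLH was 14.9 and 15.2 (Ctrl) and 14.8 and 16.2 (cKO), and in CLT it was 20.3 and 12.1 (Ctrl) and 31.3 and 33.9 (cKO). Unlike *Gata3* it was expressed throughout, and its highest and lowest libraries differed 2.80-fold.

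*Grhl1* and *Grhl3* encode grainyhead-like factors, which control desmosomal cadherins and the epidermal barrier. *Grhl1* RPKM in CLH was 0.724 and 0.643 (Ctrl) and 0.747 and 0.834 (cKO), and in CLT it was 38.5 and 0.937 (Ctrl) and 137.7 and 134.6 (cKO). *Grhl3* RPKM in CLH was 1.15 and 1.34 (Ctrl) and 1.39 and 1.44 (cKO), and in CLT it was 6.14 and 0.487 (Ctrl) and 19.7 and 19.8 (cKO). Both genes were low in CLH and in Ctrl CLT 2, and in *Grhl3* the lowest of all 8 libraries was Ctrl CLT 2. *Grhl1* was lower than *Grhl3* in the 4 CLH libraries, at 0.480 to 0.630 times its RPKM, and exceeded it in CLT, by 1.92-fold in Ctrl CLT 2 and by 6.28-fold to 7.01-fold in the other 3 libraries.

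*Cebpa* and *Cebpb* encode basic leucine zipper factors of differentiating keratinocytes that also act in fat cells. *Cebpa* RPKM in CLH was 2.08 and 2.21 (Ctrl) and 2.02 and 2.69 (cKO), and in CLT it was 11.8 and 1.55 (Ctrl) and 31.0 and 31.0 (cKO). *Cebpb* RPKM in CLH was 1.55 and 1.31 (Ctrl) and 1.75 and 1.62 (cKO), and in CLT it was 4.11 and 1.30 (Ctrl) and 6.69 and 7.48 (cKO). Ctrl CLT 2 was the lowest library for *Cebpa* and was level with the lowest CLH library for *Cebpb*, and cKO CLT was highest for both. The *Cebpa* to *Cebpb* ratio was 1.15 to 1.69 in CLH, 2.87 and 1.19 in the Ctrl CLT libraries and 4.63 and 4.14 in those of cKO CLT.

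*Hr* encodes hairless, a nuclear receptor corepressor needed for hair regrowth. Its RPKM in CLH was 9.51 and 8.95 (Ctrl) and 9.46 and 10.8 (cKO), and in CLT it was 48.4 and 10.3 (Ctrl) and 117.5 and 133.2 (cKO). The Ctrl CLT 2 value fell within the range of CLH, and both cKO CLT values lay above every other library.

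Because RPKM is scaled by gene length, levels can be set beside each other between genes within a group. In Ctrl CLH the order of mean RPKM ran from *Trp63* (23.5 ± 1.53 SD, n = 2), *Cux1* (15.1 ± 0.246) and *Hr* (9.23 ± 0.397) down to *Grhl1* (0.684 ± 0.0575) and *Gata3* (0.0767 ± 0.00616), and the neighbours *Cebpb*, *Ovol1* and *Grhl3* overlapped in their libraries. In cKO CLT it ran from *Grhl1* (136.2 ± 2.21) and *Hr* (125.4 ± 11.1) through *Ovol1* (59.9 ± 1.84), *Trp63* (49.3 ± 2.14), *Gata3* (39.3 ± 0.509), *Cux1* (32.6 ± 1.80), *Cebpa* (31.0 ± 0.0397) and *Grhl3* (19.7 ± 0.135) to *Cebpb* (7.09 ± 0.563) and *Ovol2* (1.32 ± 0.141), with no overlap between neighbours. *Grhl1* thus went from the ninth place in Ctrl CLH, where its mean exceeded that of 6.9% of the genes tested, to the first in cKO CLT, where it exceeded 97.2%. *Gata3* went from exceeding 2.6% to exceeding 87.9% of them. In Ctrl CLT every pair of neighbours in the order overlapped.

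The comparison of cKO with Ctrl in CLT asked which of these factors differ in the tissue that holds the stem cell progenies. In 9 of the 10 genes both cKO libraries lay above both Ctrl libraries, as in 37.2% of all genes tested, and in *Ovol2* both lay below, as in 35.1%. Group mean RPKM for the pair with the largest log2 fold changes was, for *Grhl1*, 136.2 ± 2.21 in cKO against 19.7 ± 26.6 in Ctrl (SD, n = 2 each), and, for *Gata3*, 39.3 ± 0.509 against 6.18 ± 8.54. The SD of Ctrl exceeded its mean in both genes. Both reached 1 RPKM only in Ctrl CLT 1 and cKO CLT, so they passed the filter on low values only through libraries where they were high. With 2 libraries a group the smallest p of an exact permutation test is 0.333, and the test used was therefore limma on log2(RPKM + 1), fitted to all genes tested with Benjamini-Hochberg adjustment. On this scale a fold change is understated for genes of low RPKM.

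In the 4 CLT libraries limma called none of the 10 genes at an adjusted p of 0.05, where 0.0777% of all genes passed as higher and 1.68% as lower. At an unadjusted p under 0.05 there were 7 of the 10, all higher in cKO, against 19.8% of all genes tested, and voom on the recovered reads also called 0. The log2 fold change was 3.97 ± 1.53 (SE) for *Grhl1*, 3.38 ± 1.25 for *Gata3*, 3.34 ± 1.11 for *Ovol1*, 2.67 ± 0.81 for *Grhl3*, 2.48 ± 0.83 for *Cebpa* and 2.42 ± 0.76 for *Hr*. It was smaller for *Cebpb* (1.24 ± 0.44), *Cux1* (1.01 ± 0.28) and *Trp63* (0.45 ± 0.15), and negative for *Ovol2* (-0.81 ± 0.45). Adjusted p-values of limma ran from 0.099 for *Cux1* to 0.26 for *Ovol2*. The median over the 10 genes was 2.45, and that over all genes tested was -0.01.

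**Figure D2:**
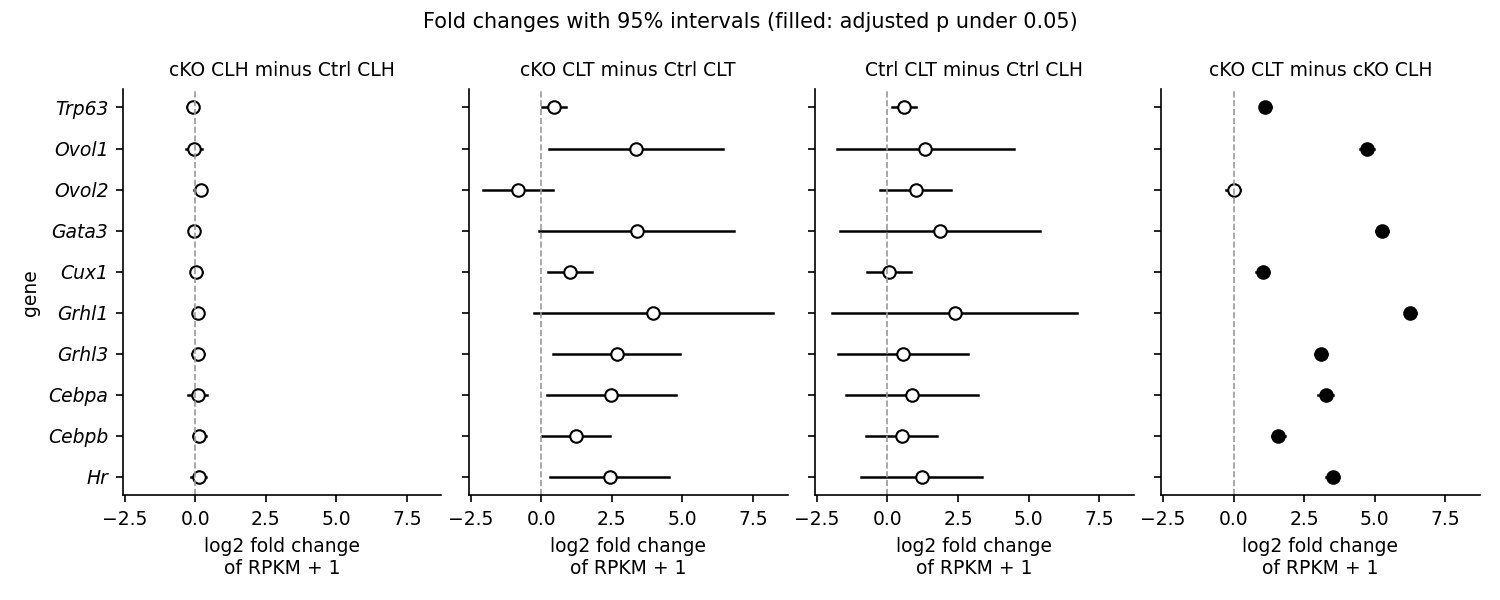
Log2 fold changes of RPKM + 1 (points) with 95% intervals of limma (lines) for the 10 genes in 4 comparisons, filled where the adjusted p is under 0.05. In cKO CLT against cKO CLH 9 of the 10 points are filled, with short intervals, and no point is filled in the other comparisons, where the CLT intervals are wide. Scaled to basal epithelium genes, *Trp63* and *Cux1* are not past the threshold there.

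The Ctrl CLT libraries were then taken one at a time. Against Ctrl CLT 1 alone the cKO CLT mean RPKM was 3.54-fold higher for *Ovol1*, 3.53-fold for *Grhl1*, 3.22-fold for *Gata3* and *Grhl3*, 2.62-fold for *Cebpa*, 2.59-fold for *Hr*, 1.72-fold for *Cebpb*, 1.61-fold for *Cux1* and 1.27-fold for *Trp63*. Against Ctrl CLT 2 alone the same ratios were 58.5, 145.2, 280.0, 40.5, 19.9, 12.1, 5.45, 2.69 and 1.48, the *Gata3* ratio resting on 12 reads in Ctrl CLT 2. For *Ovol2* the cKO CLT mean was 0.258 of Ctrl CLT 1 and 0.768 of Ctrl CLT 2. All 10 genes kept their direction against either library, but the size depended on the library by up to 87.0-fold, in *Gata3*. Without Ctrl CLT 1, 9 of the 10 genes passed limma's adjusted threshold as higher, all but *Ovol2*, where 31.4% of all genes did, and the median log2 fold change was 3.56. Without Ctrl CLT 2, the same 9 passed as higher, where 29.1% of all genes did, *Ovol2* passed as lower, and the median was 1.34. In these fits the lone Ctrl CLT library is assumed to vary like the other group. With all 8 libraries in 1 fit, which shares 1 spread over the groups, the same 9 genes passed as higher, as did 23.7% of all genes.

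**Figure D3:**
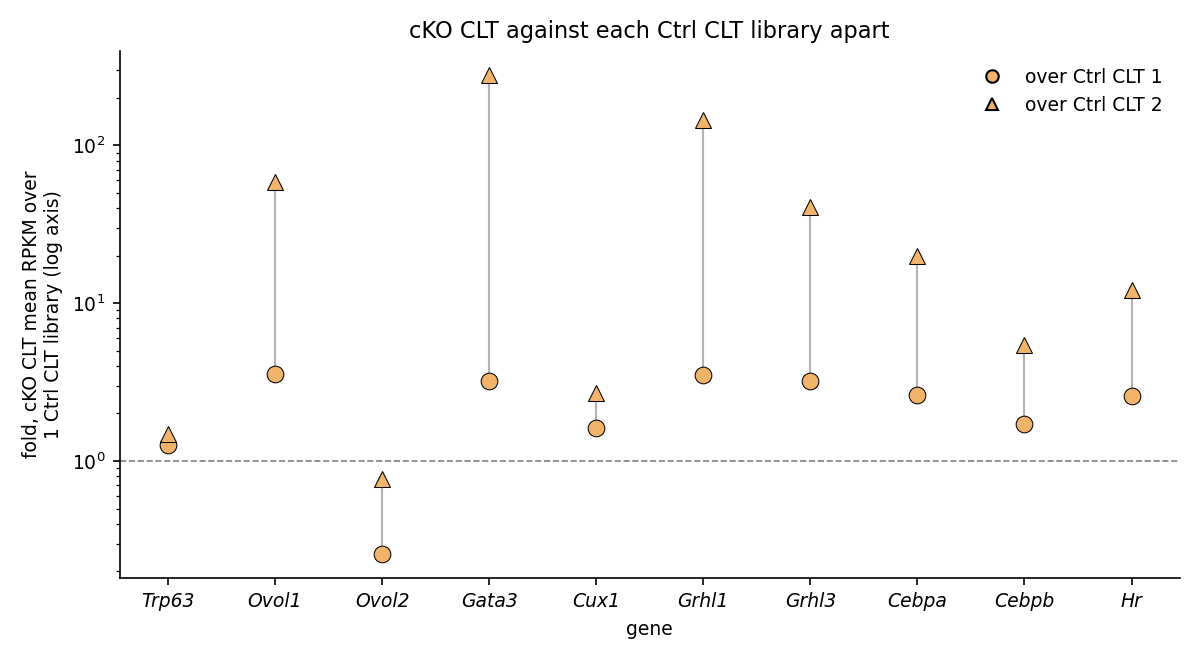
Fold of the cKO CLT mean RPKM over Ctrl CLT 1 (circles) and over Ctrl CLT 2 (triangles) for each gene, on a log axis with a dashed line at equal levels. The 9 genes above the line have the larger fold over Ctrl CLT 2, up to 280.0 for *Gata3*, and *Ovol2* lies below the line against both.

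In CLH the same contrast asked whether the factors already differ where the stem cells lie. Limma called none of the 10 genes at an adjusted p of 0.05, nor any other gene (0.0%), none of the 10 had an unadjusted p under 0.05, against 7.26% of all genes, and voom called 0 as well. Log2 fold changes ran from -0.09 ± 0.08 (SE) for *Trp63* to 0.19 ± 0.08 for *Ovol2*, with a median of 0.09 against -0.01 over all genes tested. The replicates of CLH were close and the 95% intervals were narrow, for example from -0.08 to 0.25 for *Grhl1*, from -0.14 to 0.37 for *Hr* and from -0.32 to 0.25 for *Ovol1*. For *Grhl1* and *Ovol1*, near 1 RPKM in CLH, the scale of RPKM + 1 itself narrows both fold change and interval. As a log2 ratio of group means the CLH values were 0.21 for *Grhl1*, 0.13 for *Hr*, -0.05 for *Ovol1* and -0.62 for *Gata3*. *Ovol2*, *Grhl1*, *Grhl3* and *Cebpb* were higher in both cKO libraries without overlap, against 19.9% of all genes tested, and *Gata3* was lower without overlap, against 18.8%, at 4 and 6 reads against 8 and 7. Scaled to basal epithelium genes, the signs of *Hr*, *Cux1* and *Cebpa* turned.

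The comparison of CLT with CLH asked how the factors differ between the tail and the head of the loop, in each genotype. Both are mixed tissues whose marker sums, given below, also differ. In cKO mice 9 of the 10 genes rose from CLH to CLT by limma's adjusted p, against 28.9% of all genes tested that rose and 45.1% that fell. Among the 9, *Gata3* and *Grhl1* passed the filter on low values only through Ctrl CLT 1 and cKO CLT, so their calls are not independent of the filter. With median-of-ratios scaling the same 9 rose, and over all genes 5270 rose and 4884 fell, in place of 4084 and 6384. Mean RPKM rose 786.1-fold for *Gata3*, from the few reads named above, 172.3-fold for *Grhl1*, 45.2-fold for *Ovol1*, 14.0-fold for *Grhl3*, 13.1-fold for *Cebpa*, 12.4-fold for *Hr*, 4.2-fold for *Cebpb*, 2.24-fold for *Trp63* and 2.10-fold for *Cux1*. The log2 fold changes of RPKM + 1 were 6.26 ± 0.09 (SE) for *Grhl1*, 5.26 ± 0.10 for *Gata3*, 4.72 ± 0.11 for *Ovol1* and 3.51 ± 0.10 for *Hr*, and the smallest of the 9 was 1.03 ± 0.09 for *Cux1*, with limma adjusted p-values from 3.0e-10 to 1.5e-05. The median of the 10 was 3.18, and that of all genes tested was -0.18. *Ovol2* did not pass, at -0.00 ± 0.11 with a 95% interval from -0.25 to 0.24. Scaled to basal epithelium genes, a scaling that moved the median of all genes to -1.03, the other 7 genes still rose, but *Trp63* and *Cux1* were no longer past the threshold (0.14 and 0.05 on the log2 scale) and *Ovol2* was lower by limma, at -0.56. The basal list is no fixed reference, as 3 of its 6 genes rose and 2 fell here by limma. Mean RPKM rose 27.4-fold for *Krt15* and 3.45-fold for *Krt5*, while *Itgb4* in cKO CLT was 0.441 of cKO CLH. *Krt5* and *Krt14* are also among the p63 targets listed below.

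In Ctrl mice none of the 10 genes passed limma's adjusted threshold between CLT and CLH, where 0.00707% of all genes did, and voom called 0. Only *Trp63* had an unadjusted p under 0.05, at 0.016 by limma, against 4.15% of all genes that did so as higher. Its log2 fold change was 0.59 ± 0.15 (SE) with an adjusted p of 0.33, and it turned to -0.19 when scaled to basal epithelium genes, as those of *Cux1*, *Grhl3* and *Cebpb* also turned. All 10 fold changes were positive, with a median of 0.93, and 5 genes (*Trp63*, *Hr*, *Ovol2*, *Gata3* and *Grhl1*) were higher in both CLT libraries, against 15.2% of all genes. Again the Ctrl CLT libraries differed. Ctrl CLT 1 was 159.4 times the Ctrl CLH mean for *Gata3*, 56.4 times for *Grhl1* and 12.3 times for *Ovol1*, while Ctrl CLT 2 was 1.83, 1.37 and 0.746 times that mean. Without Ctrl CLT 2 all 10 genes passed as higher, as did 18.4% of all genes, with a median of 1.85, and without Ctrl CLT 1 none passed and *Ovol1*, *Cux1*, *Grhl3*, *Cebpa* and *Cebpb* were negative. This comparison shares the Ctrl CLT libraries with the contrast of cKO and Ctrl in CLT.

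An interaction term fitted to the 8 libraries asked whether cKO acted unequally on the factors in the 2 tissues. It shares 1 spread over the 4 groups, so here and in the lists below a gene can pass it without passing in CLT alone. Its calls depend on the scaling. Over all genes 1139 passed as higher and 1355 as lower, against 4 and 127 when scaled to basal epithelium genes. By limma none of the 10 genes passed, where 17.6% of all genes did, 6 had an unadjusted p under 0.05 as higher in CLT, against 20.4%, and voom called 0. The difference of the effects was 3.88 ± 1.75 (SE) for *Grhl1*, 3.41 ± 1.43 for *Gata3*, 3.37 ± 1.27 for *Ovol1*, 0.54 ± 0.16 for *Trp63* and -1.0 ± 0.50 for *Ovol2* on the log2 scale, with a median of 2.35. Without Ctrl CLT 1, 9 of the 10 passed, where 63.1% of all genes did, and without Ctrl CLT 2 all 10 passed, where 46.6% did.

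Other members of the same families were taken as a list of 16 genes in the table, of which 11 were tested. In cKO mice, 4 of the 11 relatives tested rose from CLH to CLT by limma (*Grhl2* by 1.55 ± 0.10, *Gata6* by 1.41 ± 0.12, *Cebpg* by 0.86 ± 0.11 and the *Hr* relative *Kdm3a* by 0.80 ± 0.09, log2 fold change ± SE), 3 fell (*Trp73* by 1.48 ± 0.11, the *Hr* relative *Jmjd1c* by 0.66 ± 0.10 and *Cebpd* by 0.31 ± 0.11), and their median was -0.12, against 28.9% of all genes that rose and 45.1% that fell. *Grhl2* RPKM was 3.51 to 3.96 in CLH, 5.73 and 2.0 in the Ctrl CLT libraries and 13.1 and 12.9 in those of cKO CLT. It was the most abundant grainyhead-like gene in CLH and ranked below *Grhl1* and *Grhl3* in cKO CLT, where the *Grhl1* to *Grhl2* ratio was 10.5 and 10.4. *Trp73*, the other p53 relative of epithelia, was at 4.97 to 5.83 RPKM in CLH and at 1.26 and 1.33 in cKO CLT, the opposite course to *Trp63*. *Gata4* had no read in any library, and *Gata2* stayed between 0.545 and 1.45 RPKM. *Gata6* reached 1 RPKM in cKO CLT alone, at 2.09 and 1.5, so the filter kept it only because it was high there. *Ovol3* is not in the table used.
In CLT none of the 11 relatives passed limma's adjusted threshold between cKO and Ctrl. The largest values were 1.64 ± 0.44 for *Grhl2* (2.23 without Ctrl CLT 1 and 1.06 without Ctrl CLT 2) and 1.10 ± 0.31 for *Gata6*, and 5 of the 11 had an unadjusted p under 0.05 as higher, against 19.8% of all genes, and 1 as lower. The interaction, with its 1 spread over all 8 libraries, passed for 4 of the 11, where 17.6% of all genes passed. These were *Kdm3a* (0.80 ± 0.19), *Cebpg* (0.80 ± 0.19) and *Trp53* (0.62 ± 0.14) as higher, and *Trp73* (-0.92 ± 0.19) as lower.

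**Figure D4:**
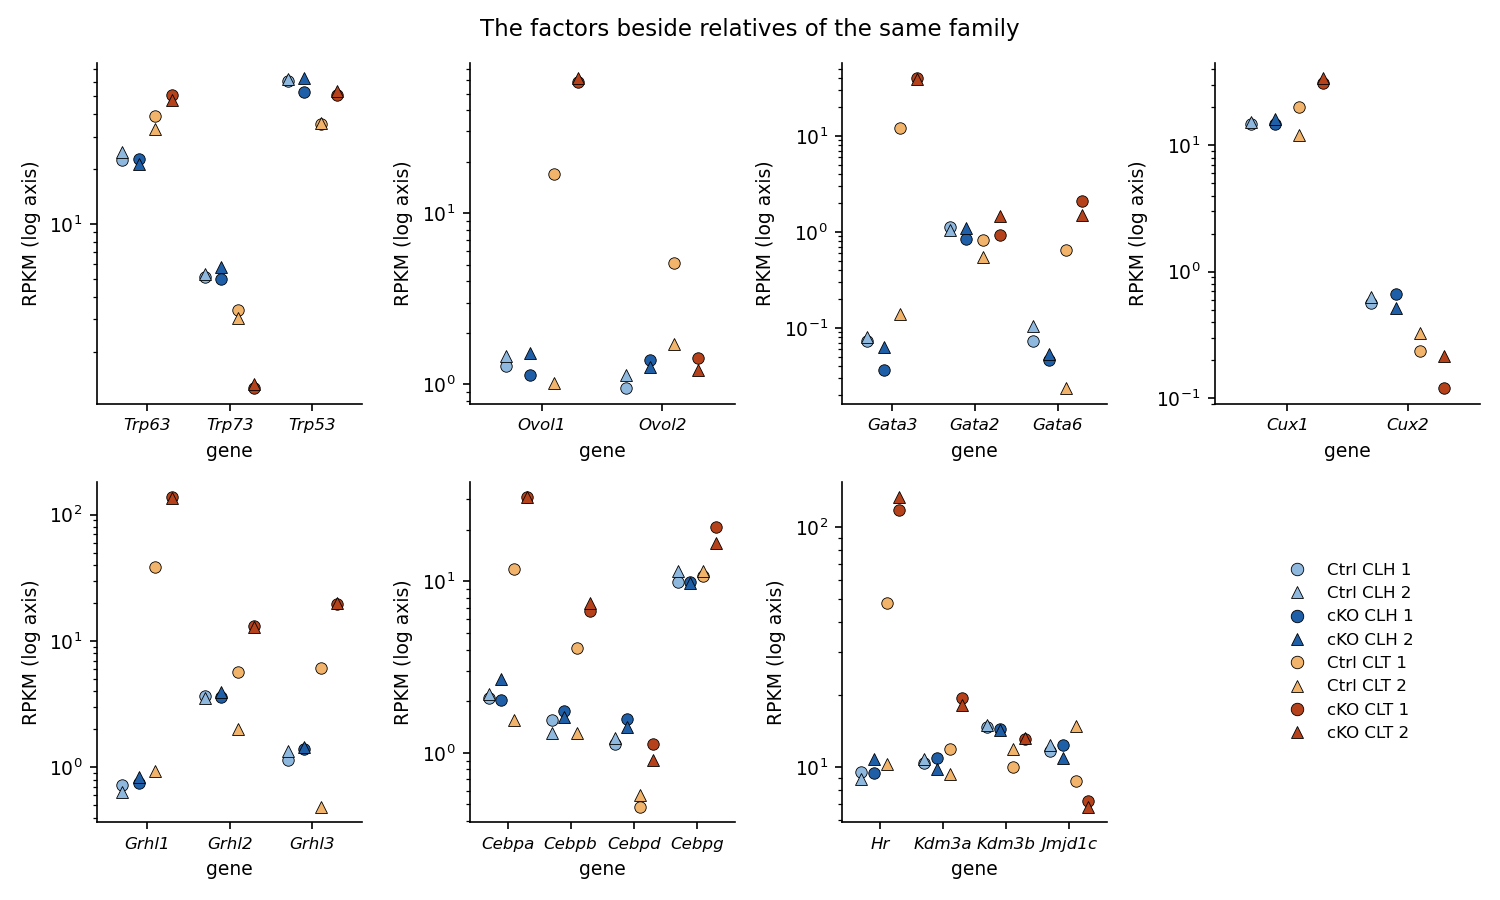
RPKM on log axes for the 10 genes beside relatives of their families, in each of the 8 libraries, with colours for groups and circles and triangles for replicates 1 and 2. *Ovol1* and *Ovol2* part in cKO CLT, *Grhl1* passes *Grhl2* in Ctrl CLT 1 and cKO CLT, and *Trp73* is lowest in cKO CLT at 1.26 and 1.33 RPKM while *Trp63* is highest at 50.8 and 47.8.

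Genes known as targets of the factors were listed by factor, and the counts of those that rose or fell from CLH to CLT in cKO mice stand against 28.9% of all genes that rose and 45.1% that fell. *Tgm5*, *Dsg1b*, *Ivl* and *Dkkl1*, named below, reached 1 RPKM only in Ctrl CLT 1 and cKO CLT. The filter thus kept them only through libraries where they were high, and their rise is a description. Of 13 p63 targets, 8 rose and 2 fell from CLH to CLT in cKO mice by limma. Those that rose include *Zfp750*, a p63-dependent differentiation factor (3.45 ± 0.09), *Perp*, a desmosome gene (2.11 ± 0.13) and *Ripk4*, a kinase of epidermal differentiation (2.08 ± 0.09). The chromatin organiser *Satb1* fell by 3.88 ± 0.09 and the basement membrane gene *Fras1* fell by 3.02 ± 0.10. *Satb1* RPKM was 37.9 to 44.2 in CLH, 27.1 and 34.9 in the Ctrl CLT libraries and 1.62 and 1.67 in those of cKO CLT, and it was the one p63 target past limma's adjusted threshold between cKO and Ctrl in CLT (-3.58 ± 0.20, adjusted p = 0.022), with -3.76 without Ctrl CLT 1 and -3.41 without Ctrl CLT 2. Another 5 targets had an unadjusted p under 0.05 as higher, and *Fras1* had one as lower. Over all genes tested, 1.68% passed the adjusted threshold as lower and 19.8% had such an unadjusted p as higher. In the interaction 1 of the 13 passed as higher and 2 as lower, *Fras1* (-2.20 ± 0.32) and *Satb1* (-3.46 ± 0.20), where 17.6% of all genes passed.
Of 7 grainyhead-like targets, 6 rose in cKO CLT against cKO CLH, with the claudin gene *Cldn4* (5.65 ± 0.11), the desmosomal cadherin gene *Dsg1a* (3.76 ± 0.11) and the transglutaminase gene *Tgm5* (2.83 ± 0.10) in front, and *Arhgef19* fell by 0.69 ± 0.10. *Cldn4* RPKM was 1.81 to 2.35 in CLH, 52.8 and 0.955 in the Ctrl CLT libraries and 147.4 and 160.1 in those of cKO CLT. Between cKO and Ctrl in CLT none of the 7 passed limma's adjusted threshold. As higher, 5 had an unadjusted p under 0.05, against 19.8% of all genes. *Cldn4* (3.92 ± 1.69) and *Dsg1a* (2.68 ± 0.73) were the largest, *Cldn4* being at 6.31 without Ctrl CLT 1 and at 1.52 without Ctrl CLT 2. The interaction passed for *Cdh1*, which encodes E-cadherin (0.69 ± 0.17), and *Dsg1b* (1.25 ± 0.33). The 3 spinous layer genes listed for C/EBP factors, *Krt1*, *Krt10* and *Ivl* (involucrin), rose in cKO CLT against cKO CLH by 5.10 ± 0.10, 5.42 ± 0.18 and 7.23 ± 0.09 and did not pass between cKO and Ctrl in CLT, where *Ivl* (4.35 ± 1.90) and *Krt10* (4.17 ± 1.83) were the largest and none had an unadjusted p under 0.05. The same 3 genes also belong to the cornified epidermis list given below, so the 2 lists are not separate.

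Of 4 genes listed as repressed by OVOL factors, 3 fell in cKO CLT against cKO CLH, where 45.1% of all genes tested fell. They were the regulators of mesenchymal state *Zeb1* (by 1.39 ± 0.11) and *Zeb2* (by 1.18 ± 0.11) and the inhibitor of differentiation gene *Id2* (by 1.26 ± 0.09). *Myc* did not pass. *Id2* RPKM was 85.2 to 94.7 in CLH, 70.5 and 98.5 in the Ctrl CLT libraries and 37.4 and 36.3 in those of cKO CLT, and its interaction value was -1.20 ± 0.23 with an adjusted p of 0.022 by limma. *Zeb1* was as low in Ctrl CLT 1, at 2.83 RPKM, as in cKO CLT, at 3.09 and 2.64. Of the mesenchyme genes, *Prrx1* (3.59 against 13.2 RPKM) and *Pdgfra* (13.5 against 38.5) were also lower in Ctrl CLT 1 than in Ctrl CLT 2. *Col1a2* differed less (674.4 against 831.0). Whether *Zeb1* and *Zeb2* follow the mesenchyme in the piece was not tested. Between cKO and Ctrl in CLT none of the 4 passed, with *Id2* at -1.16 ± 0.21, *Zeb2* at -0.91 ± 0.46, *Zeb1* at -0.58 ± 0.45 and *Myc* in the other direction at 0.60 ± 0.17. At an unadjusted p under 0.05 by limma *Myc* was higher, as were 19.8% of all genes tested, and *Id2* was lower. Of 6 HR targets and receptor partners, 4 rose in cKO CLT against cKO CLH, where 28.9% of all genes tested rose. They were led by *Dkkl1* (3.42 ± 0.11), the vitamin D receptor gene *Vdr* (1.65 ± 0.09) and the thyroid hormone receptor gene *Thrb* (1.0 ± 0.10). The Wnt and BMP antagonist gene *Sostdc1* fell by 1.59 ± 0.09. *Dkkl1* was again the largest between cKO and Ctrl in CLT, at 2.40 ± 0.80, followed by *Vdr* at 1.07 ± 0.15, and none of the 6 passed limma's adjusted threshold.

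The 9 genes other than *Ovol2* followed a like course over the 8 libraries. Pearson's r of log2(RPKM + 1) lay between 0.80 and 1.0 in their 36 pairs and between 0.06 and 0.34 in the 9 pairs with *Ovol2*. These are descriptions over 8 libraries that share 4 groups. Skeletal muscle, fat cell and melanocyte genes, given below, were also high in Ctrl CLT 1 and cKO CLT, so a high r names no cell type. Among all genes tested, those with the highest r to *Gata3* were *Krtap5-5* and *Cyp2b19*, and those to *Cebpb* were *Lce1a2* and *Il1f5*. To *Grhl1* they were *Fbp1* and *1600029D21Rik*, to *Grhl3* *Egr3* and *Tagln3*, to *Hr* *Acaa2* and *Gpr56*, to *Ovol1* *Eno3* and *Cpa4*, to *Cebpa* *AA986860* and *Adh1*, to *Cux1* *Ephb6* and *Pvrl2*, and to *Trp63* *Tmem64* and *Ide*, with r from 0.9954 to 0.9999. For *Ovol2* they were *Daf2* (0.9748) and *Plekhh1* (0.9710). *Daf2* RPKM was 6.56 and 1.16 in Ctrl CLT and 0.111 to 0.336 in the other 6 libraries, and *Plekhh1* RPKM was 16.0 and 7.62 in Ctrl CLT and 5.58 to 7.79 in the other 6.

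Marker lists of tissues moved with the factors, so their values are set beside the results. The summed RPKM of the 10 factors was 54.6 to 57.7 in CLH, 202.2 and 62.8 in the Ctrl CLT libraries and 494.3 and 509.2 in those of cKO CLT. The sum of 9 hair shaft and inner root sheath genes was 4.56 to 7.08 in CLH, 3887.5 and 9.80 in the Ctrl CLT libraries and 11400.4 and 12456.7 in those of cKO CLT, and that of 6 cornified epidermis genes was 5.78 to 20.6, 422.8 and 4.11, and 1233.1 and 1255.1. Both lists are high in the 3 libraries where the sum of the factors is high, with Ctrl CLT 1 at 32.6% and 34.0% of the cKO CLT mean and the sum of the factors at 40.3%. Single factors in Ctrl CLT 1 were at 28.2% (*Ovol1*), 28.3% (*Grhl1*), 31.1% (*Gata3* and *Grhl3*), 38.2% (*Cebpa*), 38.6% (*Hr*), 58.1% (*Cebpb*), 62.2% (*Cux1*), 78.5% (*Trp63*) and 386.9% (*Ovol2*) of the cKO CLT mean. *Ovol2* was not high in cKO CLT, and *Trp63* was above all CLH libraries in Ctrl CLT 2 too.
Lists of cells outside the epithelium did so too. In Ctrl CLT 1 the sums were 34.7% (6 skeletal muscle genes), 38.3% (5 fat cell genes) and 32.5% (5 melanocyte genes) of the cKO CLT mean, and in Ctrl CLT 2 they were 2.62%, 1.11% and 2.15%. Skeletal muscle genes summed to 26.4 to 30.7 RPKM in CLH, 658.3 and 49.7 in the Ctrl CLT libraries and 1806.7 and 1987.3 in those of cKO CLT. All 6 muscle genes, all 5 fat cell genes, all 5 melanocyte genes, all 9 hair genes and all 6 cornified genes rose from CLH to CLT in cKO mice by limma, against 28.9% of all genes. Some of them, *Plin1* included (1.15 and 1.26 RPKM), reached 1 RPKM in cKO CLT alone. Others, such as *Krt85* and *Mlana*, did so only in Ctrl CLT 1 and cKO CLT. The filter kept such genes only because they were high there, so their rise was fixed beforehand and the count is a description. None of these listed genes passed between cKO and Ctrl in CLT. The part of these tissues in the levels of the 10 factors was not tested.

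The epithelial label was checked in the same way. The 7 ameloblast genes summed to 12503.5 to 14317.8 RPKM in CLH, 84583.6 and 37391.8 in the Ctrl CLT libraries and 19.7 and 15.8 in those of cKO CLT. All 7 were lower in cKO than in Ctrl CLT past limma's adjusted threshold, where 1.68% of all genes were. Their log2 fold changes ran from -12.31 for *Amelx* to -6.54 for *Mmp20*. No ameloblast gene was at 0 in both libraries of a group. Ctrl CLT 1 held both the highest ameloblast sum and the raised levels of the 9 factors. That sum was mostly *Amelx* (48798.5 RPKM against 18601.5 in Ctrl CLT 2) and *Ambn* (28838.2 against 10886.7). *Odam* (870.9 against 3670.8) and *Klk4* (186.6 against 205.8) were lower in Ctrl CLT 1 than in Ctrl CLT 2, and the remaining genes of the list were higher. The 6 basal epithelium genes summed to 573.5 to 698.2 in CLH, 1476.1 and 848.4 in the Ctrl CLT libraries and 1909.2 and 2183.2 in those of cKO CLT. The 7 mesenchyme and bone genes summed to 2881.5 to 4038.6 in CLH, 2814.1 and 3333.8 in the Ctrl CLT libraries and 1026.6 and 1181.3 in those of cKO CLT. Within this list the genes differed unequally. In CLT *Dspp* was at 543.1 and 644.2 (Ctrl) and 0.145 and 0.174 (cKO), and *Bglap* at 490.4 and 396.7 (Ctrl) and 0.686 and 0.411 (cKO). *Ibsp* was at 22.4 and 75.6 (Ctrl) and 0.0 in both cKO libraries. *Col1a2* was at 674.4 and 831.0 (Ctrl) and 638.5 and 699.6 (cKO). By limma all 7 log2 fold changes were negative and 2 passed, where 1.68% of all genes passed as lower. The 7 leukocyte genes summed to 136.6 to 146.1, to 107.4 and 143.4, and to 91.1 and 85.3. They did not move alike. From CLH to CLT in cKO mice 5 fell by limma, where 45.1% of all genes did, and 2 rose, where 28.9% did. Those that rose were the T cell genes *Cd3g*, at 4.92 and 4.01 RPKM in cKO CLT, and *Cd3e*, at 1.44 and 1.53. *Cd3e* reached 1 RPKM in cKO CLT alone.

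**Figure D5:**
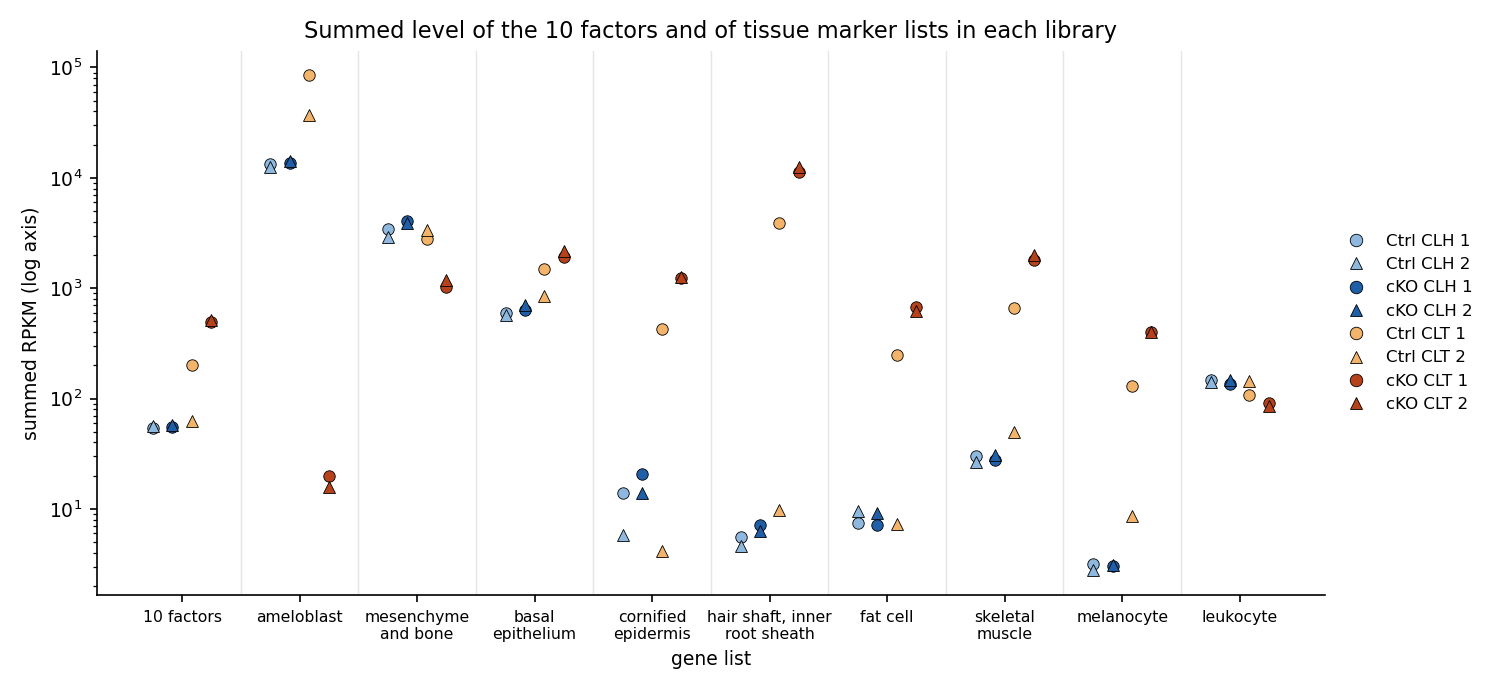
Summed RPKM on a log axis of the 10 factors and of 9 tissue marker lists in each of the 8 libraries, coloured by group, with circles for replicate 1 and triangles for replicate 2. The hair, cornified, fat, muscle and melanocyte lists are high in Ctrl CLT 1 and both cKO CLT libraries, as the sum of the factors is, while the ameloblast sum is highest in Ctrl CLT 1 at 84583.6 and lowest in cKO CLT at 15.8.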

How the data were processed

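The samples were CLH and CLT of *Med1* cKO mice and of their Ctrl littermates (RNA-seq, 2 libraries in each of 4 groups). Groups came from the sample labels. Per the methods, libraries were made with a kit (Illumina TruSeq v2) that does not mark strand. The submitters' processing notes name FastQC 0.72, Trim Galore 0.4.3.1, STAR 2.6.0b-1, featureCounts 1.6.3 and DESeq2 2.11.40.2, with build mm10. The authors deposited RPKM values of 23358 genes in 8 columns, and the number of sample columns not used was 0. The annotation is not given in the sources used here. In GENCODE M21, 7 of the 10 genes overlap a gene on the opposite strand, and reads of the pair cannot be told apart. For *Cebpb* that gene is protein-coding and is itself in the table used. For the others it is a non-coding gene or a pseudogene. A further 26 names stand on several rows each, and none is among the genes named here.

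RPKM times gene length were whole multiples of 1 step per library for 100.0% of values up to 500 steps (tolerance 0.01), which gave the reads, from 26591615 to 34420183 per library. Counting error alone is covered by these reads. From the RPKM, log2(RPKM + 1) was tested with limma 3.58.1 (lmFit, eBayes with trend) in R 4.3.3, 2-sided, with Benjamini-Hochberg adjustment over 14148 genes and a threshold of 0.05. Each comparison used its own 4 libraries, and the interaction used all 8. Replicates are biological duplicates per the methods, and the labels name no litter or day for a number, so p-values measure the spread between these libraries.

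The genes and all lists were chosen with earlier results of these data known. Named were the 10 genes, *Med1*, list members past the threshold (at most 3 with the largest change in each direction, or 2 where none passed), list extremes and the 2 genes most like each of the 10. A result that this rule would name is not reported here. Scripts were tested on simulated data. Tried as alternatives were a replicate block, 1 fit of all 8 libraries, voom on recovered reads, eBayes made robust or without trend, leaving out each library, the log2 ratio of group means, dropping the filter, pseudocounts of 0.5 and 0.1, and scaling by quantiles, by median of ratios or to basal epithelium genes. Promoter windows came from RefSeq (GRCm38.p6). Figures were drawn with matplotlib 3.10.9.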

Additional observations from a re-analysis of the deposited data

Results flagged for a closer look

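*Ovol2* and *Gata3* differed in opposite directions between cKO and Ctrl in the 2 tissues, without overlap between the libraries in either, though no single difference passed limma's adjusted threshold. *Ovol2* was higher in cKO than in Ctrl in CLH and lower in CLT, and the difference of its effects was -1.0 on the log2 scale. *Gata3* was lower in cKO than in Ctrl in CLH, at 4 and 6 reads against 8 and 7, and higher in CLT, and the difference was 3.41. In CLH the log2 fold changes were 0.19 for *Ovol2* and -0.04 for *Gata3*, with limma adjusted p-values of 0.69 and 0.81. Of all genes tested, 19.9% were higher and 18.8% lower without overlap in CLH, and scaled to basal epithelium genes 0 of the 10 factors were higher without overlap there, *Ovol2* included. The interaction did not pass for either gene by limma, with adjusted p-values of 0.20 and 0.14. In the plot of levels by library, *Ovol2* in CLT rests on Ctrl CLT 1 at 5.11 RPKM, with Ctrl CLT 2 at 1.72 and cKO CLT at 1.42 and 1.22.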

How the results depend on the processing

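With the libraries left out in turn, the number of the 10 genes past limma's threshold ranged from 0 to 10 for cKO against Ctrl in CLT, from 0 to 10 for Ctrl CLT against Ctrl CLH and from 0 to 10 for the interaction (without Ctrl CLT 1 and Ctrl CLT 2, 9 and 10, 0 and 10, and 9 and 10). Median log2 fold changes ranged from 1.34 to 3.56 for cKO against Ctrl in CLT, from 0.0 to 0.12 in CLH, from 0.0 to 1.85 for Ctrl CLT against Ctrl CLH, from 3.10 to 3.26 for cKO CLT against cKO CLH and from 1.23 to 3.46 for the interaction. One spread over all 8 libraries gave 9 calls for cKO against Ctrl in CLT and 1 for Ctrl CLT against Ctrl CLH. A replicate block gave 6 calls for cKO against Ctrl in CLT (*Hr*, *Ovol1*, *Gata3*, *Grhl1*, *Grhl3* and *Cebpa*, all higher), where 888 of 14148 genes passed as higher and 856 as lower. The numbers are not stated to pair the libraries, and the deviations of same-numbered libraries correlated by -0.19 in that comparison and by 0.07, 0.20 and 0.31 in the others. The block moved no other count of calls.

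The CLH median of 0.09 became 0.12 and 0.11 with pseudocounts of 0.1 and 0.5, 0.09 (a change smaller than the rounding) with quantile normalization, -0.04 when scaled to basal epithelium genes, 0.12 with voom and 0.13 as a log2 ratio of means. The median for cKO CLT against cKO CLH (3.18) became 3.65, 3.44, 3.37 (median-of-ratios), 2.32 (basal epithelium genes), 3.69 (voom) and 3.67 (ratio of means). Scaling to basal epithelium genes moved the median of all genes to -0.33 for cKO against Ctrl in CLT, -0.15 in CLH, -0.82 for Ctrl CLT against Ctrl CLH and -0.18 for the interaction. It left 0 genes higher and 3 lower without overlap in CLH, 3 higher and 1 lower in Ctrl CLT against Ctrl CLH and 1 lower in cKO CLT against cKO CLH.

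Signs turned for genes that were not past the threshold. Under basal epithelium scaling these were *Hr* (-0.04), *Cux1* (-0.12) and *Cebpa* (-0.03) in CLH, and *Trp63* (-0.19), *Cux1* (-0.71), *Grhl3* (-0.05) and *Cebpb* (-0.06) in Ctrl CLT against Ctrl CLH. With libraries left out, the latter comparison ranged from -0.23 to 2.92 for *Ovol1*, -0.29 to 0.40 for *Cux1*, -0.59 to 1.67 for *Grhl3*, -0.30 to 2.03 for *Cebpa* and -0.08 to 1.08 for *Cebpb*, the lowest without Ctrl CLT 1 and the highest without Ctrl CLT 2. In CLH, *Ovol1* ranged from -0.15 to 0.09 (0.02 without Ctrl CLH 2), *Cux1* had its lowest value at -0.03 and *Cebpa* ranged from -0.06 to 0.23. *Ovol2* in cKO CLT against cKO CLH became 0.12 (median-of-ratios), 0.04 (quantile), and ranged from -0.07 to 0.06 with a library left out (0.04 without cKO CLH 1). The cause was not tested. With 2 libraries a group, the spread of Ctrl CLT limits what the CLT comparison can call.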
